A study of Homo sapiens with 6 samples.

Results

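Ligands and related surface proteins through which tumor cells signal to immune cells were examined in MDA-MB-231 cells, a human triple-negative breast cancer (TNBC) line, treated with an aqueous extract of the herb Salvia chinensis Benth (SCH). The 10 genes were chosen by name from 58735 annotated genes, and each matched 1 row of the deposited tables: CD274, PDCD1LG2, CD276, CD47, NT5E, PVR, NECTIN2, LGALS9, ICAM1 and TNFSF9. Expression was measured by RNA sequencing in 3 vehicle-treated and 3 SCH-treated samples, described as biological repeats of a wild type line, with SCH at 100 mg/l and both groups harvested at 24 h. The vehicle is not named, the sample labels give RPMI-1640 as the medium and the methods of the study DMEM, and both groups were cultures of tumor cells without immune cells. The total counts on genes were 20291379, 18714240 and 18334857 after vehicle and 16836369, 17979434 and 18414924 after SCH.

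Immune checkpoint ligands are membrane proteins that bind receptors on T cells, natural killer cells or macrophages and restrain or stimulate them. PD-L1 (CD274) and PD-L2 (PDCD1LG2) bind PD-1 and dampen T cell activation, and CD276 (B7-H3) is a member of the same B7 family whose receptor is not settled. CD47 binds SIRPA on macrophages and inhibits phagocytosis. CD73 (NT5E) is an ectoenzyme that turns extracellular AMP into adenosine, which suppresses T cells. PVR (CD155) and NECTIN2 (CD112) are adhesion molecules of the nectin family that share the inhibitory receptor TIGIT and the activating receptor CD226. Galectin 9 (LGALS9) is a secreted lectin that binds TIM-3, ICAM1 binds the leukocyte integrin LFA-1, and 4-1BBL (TNFSF9) is a stimulatory ligand of 4-1BB (TNFRSF9). In many cell types ICAM1 is transcribed in response to NF-kB and to interferon.

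After SCH, TNFSF9 rose 3.29-fold and ICAM1 1.92-fold, CD276 rose slightly, NT5E fell to 0.665 of its vehicle level and PVR fell slightly. CD274, PDCD1LG2, CD47, NECTIN2 and LGALS9 did not pass the test. The quasi-likelihood test of edgeR was applied to the counts of the 14736 genes that passed its filter on low counts, and the threshold was an adjusted p (Benjamini-Hochberg) under 0.05. All 10 members passed the filter, 3 were raised against a background of 29.3% of all tested genes, and 2 were lowered against 29.4%. In either direction 5 of 10 had changed, against 58.7% of all tested genes, so that the share was near the background. The median absolute log2 fold change was 0.21 over the members and 0.31 over all tested genes. With library size alone as the scaling, 5519 genes were raised and 3295 lowered in place of 4318 and 4332, the median of all genes moved from -0.0034 to 0.099, and PVR no longer passed. In RNA from whole cultures, a smaller share of cells that carry a transcript and less of it per cell cannot be told apart.

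The identity of the cells was checked against marker genes. The levels are given as FPKM, fragments per kilobase of gene length scaled to sequencing depth, the unit in which genes can be compared. The deposited FPKM are also multiplied by a factor for each sample, 0.995 to 1.008 after vehicle and 0.937 to 0.941 after SCH. VIM, CD44 and EGFR, which mark this mesenchymal line, stood at 263, 96.6 and 43.2 FPKM after vehicle and at 180, 99.3 and 35.7 after SCH. VIM (log2 fold change -0.56) and EGFR (-0.28) fell past the threshold of the test described above. ESR1 and PGR, the hormone receptor genes that TNBC lacks, had at most 4 and 1 counts in any sample, and CDH1 at most 6. ERBB2 and EPCAM were not at 0, with 6.67 and 6.53 FPKM after vehicle. ERBB2 rose (0.29 on the log2 scale) and EPCAM fell (-0.52), and the part of these marker changes in the results was not tested. Of 14 leukocyte markers, CD3D, CD2, MS4A1 and TYROBP had no count in any sample, and the most abundant, CD14, had a mean of 0.461 FPKM. The 14 markers summed to 1.31, 1.66 and 1.14 FPKM after vehicle and to 1.10, 1.38 and 1.21 after SCH. PTPRC, the gene of the leukocyte antigen CD45, moved with treatment at these low levels, from 39, 37 and 34 counts after vehicle to 4, 9 and 3 after SCH, and CD8A from 22, 20 and 25 counts to 8, 11 and 11. Both fell (edgeR, adjusted p = 8.80e-07 and 0.0057), the direction of NT5E and PVR and opposite to TNFSF9, ICAM1 and CD276, and their part in the results below was not tested.

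The members differed widely in level. After vehicle, NT5E was the highest at 142 ± 5.45 FPKM (SD, n = 3), above 98.1% of the tested protein-coding genes, followed by PVR at 92.7 ± 1.47 and NECTIN2 at 38.7 ± 1.59 FPKM. ICAM1 (19.6 ± 0.664), CD47 (16.1 ± 0.829), CD274 (9.83 ± 0.412), CD276 (8.06 ± 0.350) and TNFSF9 (6.92 ± 0.16) lay in the middle. PDCD1LG2 (2.39 ± 0.314) and LGALS9 (0.268 ± 0.048) were the lowest. The samples of neighbouring genes in this order did not overlap after vehicle. After SCH the order changed. ICAM1, at 37.9 ± 1.07 FPKM, lay next to NECTIN2, at 36.6 ± 0.969, with overlapping samples, and TNFSF9, at 22.9 ± 0.290, moved above CD47, at 16.4 ± 0.630. CD276, at 9.35 ± 0.090, and CD274, at 9.06 ± 0.368, overlapped in their samples. NT5E (94.7 ± 2.98) and PVR (83.1 ± 1.83) remained the 2 highest.

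**Figure D1:**
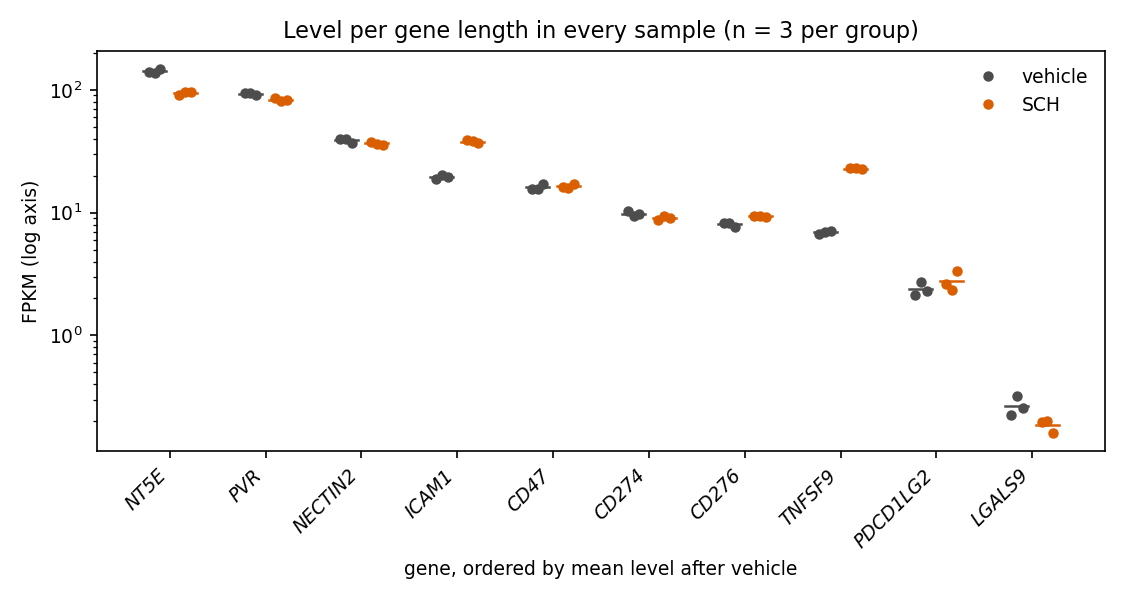
Level of the 10 genes in FPKM on a log axis, with a point for each sample and a line for the mean of 3 vehicle-treated (grey) and 3 SCH-treated (orange) samples, in the order of the vehicle means. TNFSF9 moves from 6.92 to 22.9 FPKM and ICAM1 from 19.6 to 37.9, while NT5E falls from 142 to 94.7 and stays the highest.

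The sum over the 10 genes was 335, 335 and 339 FPKM after vehicle and 313, 313 and 313 after SCH, so the groups did not overlap. This gap is close in size to the group difference in the factor that the deposited FPKM carry. That factor was 1.006, 1.008 and 0.995 after vehicle and 0.941, 0.937 and 0.937 after SCH, so the gap in the sum depends on the scaling. The share of NT5E in this sum was 42.1% ± 1.27 (SD, n = 3) after vehicle and 30.3% ± 0.971 after SCH, that of ICAM1 5.83% ± 0.208 and 12.1% ± 0.339, and that of TNFSF9 2.06% ± 0.034 and 7.31% ± 0.091. These sums weigh unrelated proteins equally and serve only to describe the composition.

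TNFSF9 (ENSG00000125657), on chromosome 19 of GRCh38 from 6530999 to 6535928, had the largest change of the members. Its counts scaled to the TMM-adjusted library size (normalized CPM) were 11.6, 11.9 and 12.2 after vehicle and 39.5, 39.3 and 38.8 after SCH. Every SCH-treated sample lay more than 3 times above every vehicle-treated sample, and the samples within a group lay close together. This was a change of 1.72 on the log2 scale (SE 0.078, edgeR adjusted p = 1.31e-14), a fold of 3.29 with a 95% interval from 2.94 to 3.68. Only 2.06% of the tested genes had a larger absolute change. TNFRSF9, the gene of its receptor 4-1BB, which activated T cells display, was also raised in these tumor cells. It had 44, 62 and 45 counts after vehicle and 198, 220 and 234 after SCH, without overlap, a difference of 2.11 on the log2 scale (SE 0.15, edgeR adjusted p = 2.75e-11). Its level stayed low, at 0.419 FPKM after vehicle and 1.81 after SCH.

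ICAM1 (ENSG00000090339), on chromosome 19 from 10270835 to 10286615, is the adhesion molecule that anchors leukocytes to other cells. It had 72.7, 77.8 and 75.1 normalized CPM after vehicle and 148, 145 and 141 after SCH. The lowest SCH-treated sample was far above the highest vehicle-treated sample. ICAM1 rose by 0.94 on the log2 scale (SE 0.053, edgeR adjusted p = 5.14e-13), a fold of 1.92 with a 95% interval from 1.78 to 2.08, and 10.2% of the tested genes had a larger absolute change. Of its exonic bases, 23.6% lie in exons of AC011511.2 and AC011511.5 on the opposite strand, and reads from that part cannot be assigned where strand is not recorded.

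The start of ICAM1 is shown beside that of CD274, because both are known to respond to NF-kB and interferon while the transcripts behaved differently after SCH. The windows, from RefSeq on GRCh38.p14, run from 250 bases before to 50 after the RefSeq start on the plus strand. They are chr19:10270870-10271169 for ICAM1 and chr9:5450292-5450591 for CD274. RefSeq starts can differ from the gene starts printed with the members. The ICAM1 window lies wholly inside the gene as printed, which begins at 10270835. Capitals mark matches to GGAANNTCC, a motif like the kB sites bound by NF-kB, and to TTCNNNGAA, the GAS element of interferon-responsive genes, both searched on both strands.

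ICAM1: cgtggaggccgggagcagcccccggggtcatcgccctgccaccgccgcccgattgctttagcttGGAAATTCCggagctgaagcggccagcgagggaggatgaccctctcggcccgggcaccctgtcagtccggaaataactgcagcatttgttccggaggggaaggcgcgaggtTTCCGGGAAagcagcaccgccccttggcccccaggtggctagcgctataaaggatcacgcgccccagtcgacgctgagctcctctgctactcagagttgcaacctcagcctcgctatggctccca
CD274: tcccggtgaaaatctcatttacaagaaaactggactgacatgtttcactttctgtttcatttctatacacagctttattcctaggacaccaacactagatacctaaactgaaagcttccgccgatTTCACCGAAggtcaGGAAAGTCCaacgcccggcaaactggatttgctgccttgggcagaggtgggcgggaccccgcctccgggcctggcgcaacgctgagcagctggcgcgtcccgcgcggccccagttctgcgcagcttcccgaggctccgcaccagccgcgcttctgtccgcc

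Each window holds 1 match to either motif. In ICAM1 these are GGAAATTCC, at positions -186 to -178 from the start, and TTCCGGGAA, at -75 to -67. In CD274 they are GGAAAGTCC, at -111 to -103, and TTCACCGAA, at -125 to -117. Of 27305 promoter windows of the same length, 4.59% hold the first motif and 7.88% the second. A 10-base NF-kB consensus (in 10.8% of windows) and the AP-1 element TGANTCA (in 7.76%) were searched as well, and no site matched both the consensus and the kB-like motif. Neither window held either of these, and TNFSF9, NT5E, PVR, NECTIN2, CD47 and LGALS9 had no match to any of the 4 motifs. The consensus matched in 1 of the windows of CD276. Windows were found for 9 of the 10 members, not for PDCD1LG2. The motifs were chosen with the ICAM1 window in view, and a match is a description of the letters, not of binding.

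CD274 (ENSG00000120217), on chromosome 9 from 5450503 to 5470566, had 43.7, 40.2 and 41.5 normalized CPM after vehicle and 36.9, 40.0 and 38.1 after SCH. The SCH-treated samples were all below the vehicle-treated samples, by a margin smaller than the spread within a group. The log2 fold change was -0.13 (SE 0.067, edgeR adjusted p = 0.111), with a 95% interval from -0.26 to 0.012, so that a rise like that of ICAM1 lies outside the interval. With upper quartile normalization CD274 passed the threshold (-0.16, adjusted p = 0.0463, against 0.0463 to 0.792 over all settings). PDCD1LG2 (ENSG00000197646) begins 40.0 kb beyond the end of CD274 on the same strand, and its level was lower. It had 5.18, 6.68 and 5.68 CPM after vehicle and 6.31, 5.74 and 8.15 after SCH, with overlapping groups and a log2 fold change of 0.21 (95% interval from -0.11 to 0.52, adjusted p = 0.252 from edgeR). Only 101 to 155 counts per sample stood behind these values, and the log2 fold change ran from 0.056 to 0.32 when a replicate was left out, with the lowest value without SCH replicate 3. The FPKM of CD274 was 4.86, 3.46 and 4.21 times that of PDCD1LG2 after vehicle and 3.37, 4.01 and 2.69 times after SCH, so the ratio overlapped between groups.

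CD276 (ENSG00000103855), on chromosome 15 from 73683966 to 73714518, had 47.2, 47.6 and 44.0 normalized CPM after vehicle and 53.1, 53.9 and 53.1 after SCH. The groups did not overlap, and the SCH-treated samples varied little. CD276 rose by 0.21 on the log2 scale (SE 0.062, edgeR adjusted p = 0.00635), a factor of 1.15 with a 95% interval from 1.06 to 1.26. Of all tested genes, 64.4% had a larger absolute change. Among the 3 members of the B7 family, CD276 was the one that passed, and the differences between the 3 genes in response were not tested.

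NT5E (ENSG00000135318), on chromosome 6 from 85449584 to 85495791, had 653, 646 and 694 normalized CPM after vehicle and 424, 450.0 and 452 after SCH. The groups lay far apart compared with the spread within them. NT5E had a log2 fold change of -0.59 (SE 0.048, edgeR adjusted p = 2.72e-10), a fold of 0.665 with a 95% interval from 0.621 to 0.712, and 23.9% of the tested genes had a larger absolute change. With 7403 to 12740 counts per sample, NT5E was the most deeply covered member.

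PVR (ENSG00000073008), on chromosome 19 from 44643798 to 44663583, had 341, 340.3 and 332 normalized CPM after vehicle and 308, 296 and 300.3 after SCH. The groups did not overlap but lay close, with a fold of 0.893. On the log2 scale the change was -0.16 (SE 0.046, edgeR adjusted p = 0.0036), and it was -0.061 (adjusted p = 0.25) with library size alone, the setting that gave the highest adjusted p. NECTIN2 (ENSG00000130202), 183 kb further along the same strand, had 153, 154 and 143 CPM after vehicle and 145, 141 and 138 after SCH. Its groups overlapped, with a log2 fold change of -0.087 (95% interval from -0.19 to 0.018, adjusted p = 0.147 from edgeR). The direction of NECTIN2 turned to 0.016 with library size alone, and the gene passed the threshold as lowered with upper quartile normalization (-0.12, adjusted p = 0.0455) and without vehicle replicate 3 (-0.12, adjusted p = 0.0313), in a range of adjusted p from 0.0313 to 0.796 over all settings. The FPKM of PVR was 2.37, 2.36 and 2.47 times that of NECTIN2 after vehicle and 2.26, 2.24 and 2.31 times after SCH, with no overlap.

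CD47 (ENSG00000196776), on chromosome 3 from 108043094 to 108091862, had 134, 132 and 145 normalized CPM after vehicle and 136, 135 and 145 after SCH. The groups overlapped almost entirely. The log2 fold change was 0.018 (95% interval from -0.092 to 0.13, adjusted p = 0.790 from edgeR), and its sign turned with upper quartile normalization and when vehicle replicate 2 or SCH replicate 3 was left out. LGALS9 (ENSG00000168961), on chromosome 17 from 27629798 to 27649560, had 26, 34 and 27 counts after vehicle and 20, 22 and 18 after SCH. These are too few for a firm statement, and the log2 fold change of -0.53 had a 95% interval from -1.12 to 0.053 (adjusted p = 0.112 from edgeR). Its near-identical copies LGALS9B and LGALS9C had at most 1 and 6 counts in a sample, and reads may be divided among the 3 genes.

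**Figure D2:**
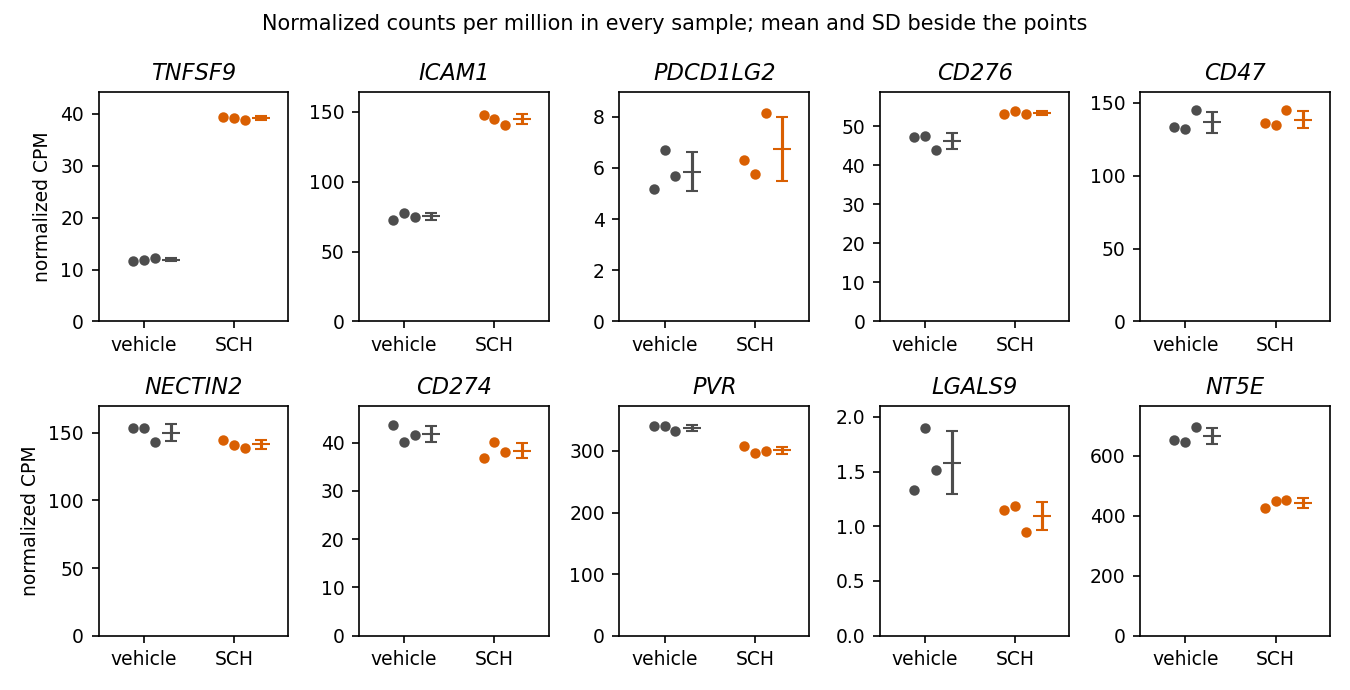
Normalized CPM of each member in 3 vehicle-treated (grey) and 3 SCH-treated (orange) samples on linear axes from 0, with the mean and SD beside the points. The groups lie apart in TNFSF9, ICAM1, CD276, CD274, PVR, LGALS9 and NT5E, and the gap is wide against the SD in TNFSF9 (11.9 to 39.2 CPM), ICAM1 (75.2 to 145) and NT5E (665 to 442).

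In 7 of the 10 members the samples of the groups did not overlap in normalized CPM, against 62.4% of all tested genes. An exact two-sided permutation test of the CPM gave p = 0.1 for each of these 7, the smallest value that 3 samples against 3 allow, and p = 0.2, 0.4 and 0.5 for NECTIN2, PDCD1LG2 and CD47. The replicates varied by 0.888% to 5.24% of the mean (coefficient of variation) in the 8 members with more than 200 counts in every sample, and by 11.6% to 18.7% in PDCD1LG2 and LGALS9.

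**Figure D3:**
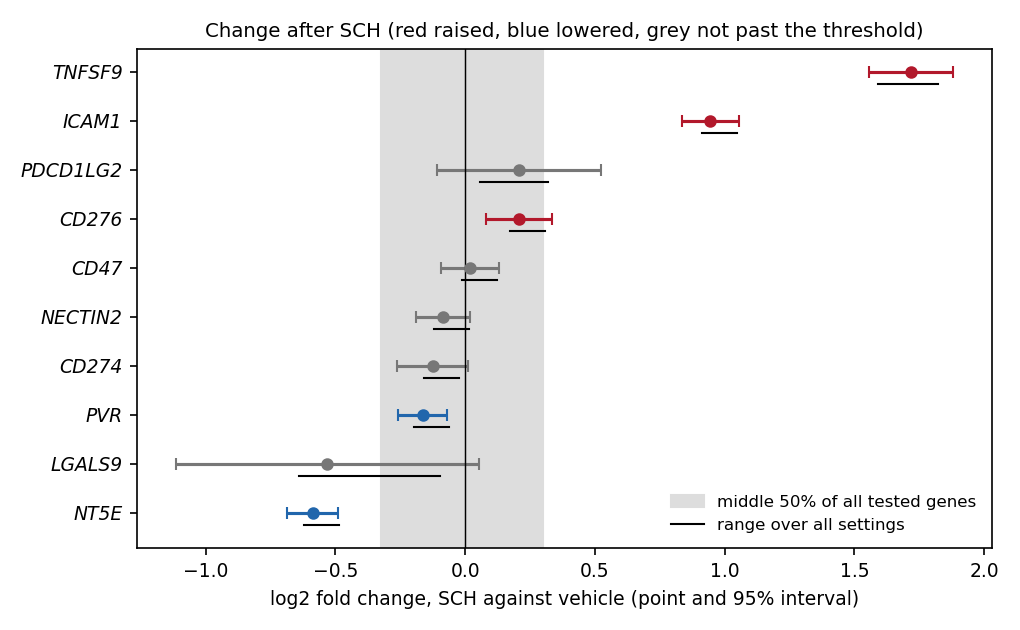
Log2 fold change of each member with its 95% interval from edgeR (red raised, blue lowered, grey not past the threshold). The black line under each is the range over the main fit and the alternatives, 2 of them on log2(FPKM + pseudocount), which shrinks low genes such as LGALS9, and the grey band from -0.32 to 0.30 holds the middle 50% of all tested genes. TNFSF9, ICAM1 and NT5E lie outside the band in every setting.

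By position, 4 members (TNFSF9, ICAM1, PVR and NECTIN2) lie on chromosome 19 and 2 on chromosome 9, and the members of chromosome 19 included both raised and lowered genes. The genomic spans ran from 4.93 kb in TNFSF9 to 60.7 kb in PDCD1LG2. The genes whose pattern over the 6 samples was most like that of TNFSF9, by the root mean square distance of centred log2 CPM among 10713 genes of mean count 100 or more, were TRAF1 (distance 0.048), an adaptor of TNF receptors, FAM222A (0.054) and SERTAD1 (0.074), with log2 fold changes of 1.68, 1.77 and 1.8. Those most like NT5E were TMEM97 (0.015), HSPD1 (0.018), a mitochondrial chaperone, and IARS (0.021), an aminoacyl-tRNA synthetase, with changes of -0.57, -0.59 and -0.62. Where replicates lie close together, this distance depends largely on the size of the change after SCH, and shared regulation was not tested.

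The ligands were then set beside related genes in 9 lists, whose counts are to be read against 29.3% raised, 29.4% lowered and 58.7% changed among all tested genes. In the B7 and butyrophilin list, 3 of 7 tested genes were raised and none fell past the threshold, a share changed below the 58.7% of all tested genes, and the median log2 fold change was 0.11 (-0.0034 over all tested genes). VSIR, the gene of the inhibitory ligand VISTA, rose from 11.3 ± 0.262 to 25.5 ± 1.47 CPM (mean ± SD of 3), 1.17 on the log2 scale (edgeR adjusted p = 7.77e-11). The butyrophilin BTN2A2 rose by 0.56 on the log2 scale. BTN2A1 (0.16, adjusted p = 0.0446) lost the threshold in 8 of 16 alternatives, with adjusted p up to 0.201. CD80 and CD86, the ligands of CD28 and CTLA4, had no count in any sample.

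Among the other TNF superfamily ligands, none of 7 tested genes was raised in edgeR and 4 were lowered (median -0.29). With 58.7% of all tested genes changed, 4 of 7 was near the background, and the difference from TNFSF9 was not tested. The lowered genes were TNFSF12 (-0.29) and, at under 60 counts in every sample, TNFSF15 (-1.58), TNFSF4 (-0.89) and TNFSF18 (-2.78), the last 3 named after their values were seen. TNFSF18 had 27, 15 and 29 counts after vehicle and 0, 4 and 6 after SCH, and its log2 fold change ran from -3.45 to -2.24 when a library was left out. TNFSF12 lost the threshold in 9 of 16 alternatives and TNFSF4 in 2 (0.0612 at most), and with library size alone or without vehicle replicate 3 the number raised was 1.

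In the list of nectins and adhesion molecules, 6 of 12 tested genes were raised and 4 lowered (median 0.19), beside 29.3% and 29.4% of all tested genes. NECTIN1 rose by 0.45 on the log2 scale, ICAM5 by 0.33 and L1CAM by 0.33. L1CAM lost the threshold in 3 of 16 alternatives, 2 of them edgeR without vehicle replicate 2 and without vehicle replicate 3 (adjusted p up to 0.0554). VCAM1 and SELE, which join ICAM1 in recruiting leukocytes to activated endothelium, had at most 1 count in any sample. The level of THBS1, a secreted ligand of CD47, fell from 705 ± 16.1 to 337 ± 6.97 CPM (mean ± SD of 3), -1.07 on the log2 scale (edgeR adjusted p = 4.35e-15), while CD47 itself did not pass the test. MCAM (-0.39) and NECTIN3 (-0.30) were also lowered, the latter with overlapping groups and an adjusted p of 0.062 in edgeR with library size alone.

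In the list of extracellular ATP and adenosine, to which NT5E belongs by function, 2 of 9 tested genes were raised and 4 lowered (median -0.31), and 6 of 9 changed was near the background of 58.7%. ADORA2B, an adenosine receptor, fell from 138 ± 3.54 to 94.1 ± 1.39 CPM (mean ± SD of 3), -0.55 on the log2 scale (edgeR adjusted p = 2.45e-09), close to the -0.59 of NT5E. The nucleoside transporter SLC29A2 (-0.66) and adenosine kinase, ADK (-0.31), were lowered too, and a related transporter, SLC29A1 (-0.13), lost the threshold in 11 of 16 alternatives. ENTPD3 (0.55) and ENPP1 (0.38), ectoenzymes that act on extracellular ATP, were raised. ENTPD1 (CD39), which makes the AMP that CD73 uses, had 0.773 FPKM after vehicle and did not pass the test (-0.31, adjusted p = 0.108).

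A list of 17 genes of immune receptors held receptors of the members and others, such as CD28 and CTLA4. Of these 17, 5 passed the filter and 2 were raised, TNFRSF9 and LAG3. The product of LAG3 is not among the receptors of the members named above. LAG3, named after its values were seen, had 3 to 18 counts per sample and lost the threshold in 3 of 15 alternatives, 2 of them edgeR without vehicle replicate 1 and without SCH replicate 1 (adjusted p up to 0.0983). PDCD1 and ITGAL, which encode PD-1 and a chain of LFA-1, had no count in any sample.

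The list of interferon and NF-kB input had 16 of 23 genes raised and 2 lowered, where 29.3% and 29.4% of all tested genes were (median 0.42). NFKB2 and RELB, the subunits of the non-canonical NF-kB dimer, rose by 1.47 and 1.36 on the log2 scale (adjusted p = 1.54e-16 and 6.15e-14 from edgeR). SOCS1, a feedback inhibitor of interferon signaling, rose by 1.62. STAT2 (0.87) and IRF1 (0.52), transcription factors of the interferon response, were raised as well, beside the CD274 change of -0.13. NFKB1 had a log2 fold change of 0.014 (adjusted p = 0.852). MYC and SOCS3 were lowered, by -0.69 and -0.28. STAT2, IRF1 and NFKB1 were chosen for their known role after their values were seen.

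Of 19 regulators that act on the ligand proteins, 7 were raised and 3 lowered (median -0.0081), and 10 of 19 changed was near the background of 58.7%. CMTM6, which keeps PD-L1 at the cell surface, rose by 0.35 on the log2 scale (adjusted p = 4.66e-06 from edgeR), while its relative CMTM4 fell by 0.25, a call lost with library size alone (-0.15, adjusted p = 0.0695). HIP1R (0.38), which directs PD-L1 to lysosomes, and HGS (0.30), a sorting factor of endosomes, were raised. QPCTL, the enzyme that modifies CD47 so that it binds SIRPA, fell from 41.6 ± 2.48 to 25 ± 1.12 CPM (mean ± SD of 3), -0.73 on the log2 scale (edgeR adjusted p = 7.79e-09). STT3A, a catalytic subunit of N-glycosylation, fell by 0.54. No protein was measured in these files.

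**Figure D4:**
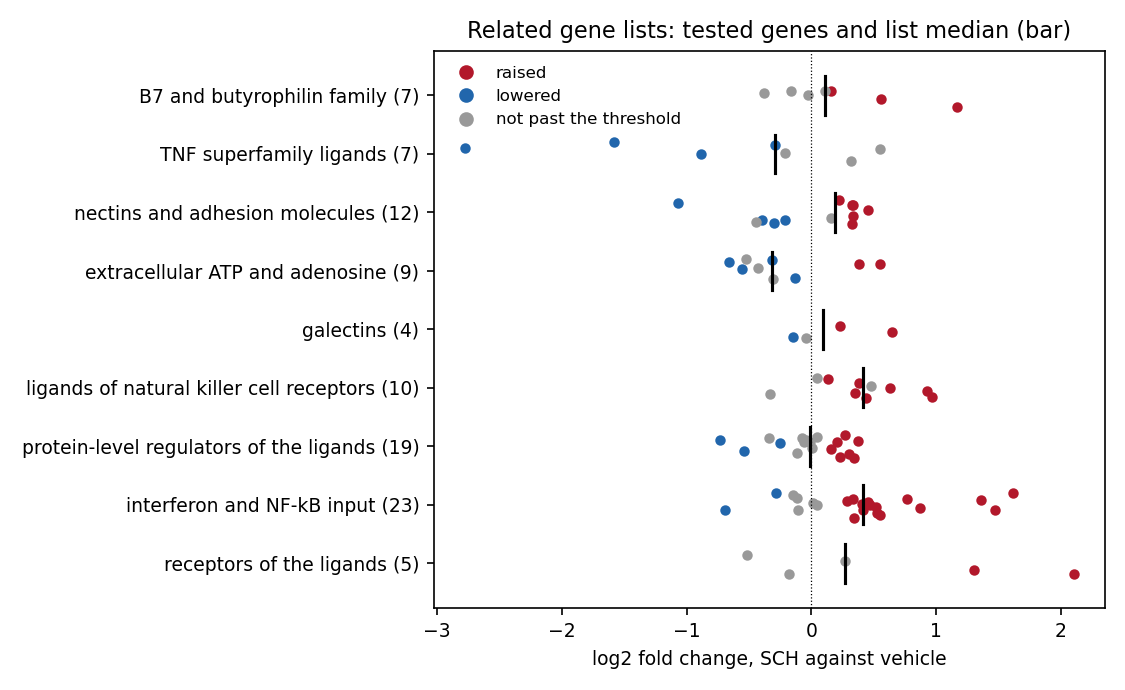
Log2 fold change of the tested genes in each of the 9 related lists (number tested in parentheses), red where raised, blue where lowered and grey where not past the threshold, with a bar at the list median. The medians run from -0.31 in the adenosine list to 0.42 in the interferon and NF-kB list, and the largest single changes are those of TNFRSF9 (2.11) and of TNFSF18 (-2.78), which rests on at most 6 counts per sample after SCH.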

How the data were processed

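RNA sequencing covered 3 vehicle-treated and 3 SCH-treated samples of MDA-MB-231 cells. The authors deposited a table of unnormalized counts and a file of FPKM for each sample. These FPKM equal the count scaled to gene length and total count, then multiplied by a factor for each sample of 0.937 to 1.008. The submitters' processing notes name HISAT2 2.0.5, featureCounts 1.5.0-p3, CASAVA 1.8 and DESeq2 1.20.0 with GRCh38. Poly-T purified mRNA was used, and no strand setting is given in the sources used here. Replicates differed beyond sampling noise (chi-square divided by its degrees of freedom, 2.12 to 5.75).

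The analysis used edgeR 4.0.16 under R 4.3.3, with TMM scaling, filterByExpr and the quasi-likelihood test of SCH against vehicle without covariates, adjusted over 14736 genes. Intervals are 95% t intervals on the log2 fold change. Overlaps of exons were read from GENCODE release 29, and promoters from RefSeq tables on GRCh38.p14. The members and lists were chosen with earlier results of these data known. The genes named are the 10 members, the up to 3 raised and 3 lowered genes of largest change per list whose mean count was 50 or more, and the 3 genes most like the members with the largest rise and fall (mean count of 100 or more). Beyond this rule, markers, genes at 0, the near-empty VCAM1, SELE, LGALS9B and LGALS9C, and MICA, MICB, HLA-E, SLC29A1, ENTPD1, STAT2, IRF1, NFKB1, TNFSF4, TNFSF15, TNFSF18, LAG3, LGALS3BP, PTPRC and CD8A were named after their values were seen.

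Alternatives were RLE, library size only and upper quartile scaling, no filter or a minimum of 10 counts per sample, DESeq2 1.42.0, limma 3.58.1 with trend on log2(FPKM + 1) and log2(FPKM + 0.1), a block for the replicate number, an adjusted p under 0.01, and each replicate left out. On simulated counts of 14552 genes for this comparison, of which 199 were changed, 82.4% of the changed genes and 92.2% of those with a true log2 change of 1 or more were recovered, and 5.75% of calls were false. Far fewer genes were changed there than were called in the data. Figures were drawn with Python 3.11.15.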

Additional observations from a re-analysis of the deposited data

How the results depend on the processing

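TNFSF9, ICAM1, CD276, NT5E, PDCD1LG2 and LGALS9 did not change sign or call in any of the 16 alternatives, with log2 fold changes from 1.59 to 1.82, 0.91 to 1.05, 0.17 to 0.31, -0.62 to -0.49, 0.056 to 0.32 and -0.64 to -0.096. The other 4 members did in at least 1. The number of members lowered was 1 with library size alone, where PVR was lost (-0.061) and NECTIN2 turned to 0.016, and 4 with upper quartile normalization, where CD274 and NECTIN2 were added and CD47 turned to -0.014. Without one replicate, CD47 ran from -0.0051 to 0.063, with the sign turned without vehicle replicate 2 or SCH replicate 3, and NECTIN2 was lowered without vehicle replicate 3 (-0.12). The scaling sets these small changes by construction, and for the single replicates the cause was not tested. Of 75 other genes, those called in the lists or most like a member in pattern, 58 kept their call in every alternative that tested them and none reversed. For TNFSF15, TNFSF18, PTPRC and CD8A among the 58, these were 15, since the minimum of 10 counts removed them. Of 288 counts for the lists under the alternatives, 267 stayed within 1.5 times the main count. Listed genes that did not pass were followed in these counts and not one by one. Between 7809 and 8489 genes were changed when a replicate was left out.

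Samples with the same replicate number did not deviate together (correlations 0.046, -0.022 and 0.022 across genes), so the numbers were not taken as pairs. With the replicate block 8705 genes were changed in place of 8650, and no member's call changed. Depth was lowest in LGALS9, with 18 to 34 counts per sample, and PDCD1LG2, with 101 to 155, and both had wide intervals.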

Other observations

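Ligands of natural killer cell receptors, activating and inhibitory, were among the related genes not described above. Of 10 tested, 7 were raised and none was lowered in edgeR, against 29.3% and 29.4% of all tested genes (median log2 fold change 0.41, against -0.0034 over all tested genes). RAET1G, ULBP2 and ULBP3, ligands of the receptor NKG2D, had log2 fold changes of 0.96, 0.92 and 0.63 (adjusted p = 1.07e-05, 7.97e-10 and 1.98e-04 from edgeR). ULBP2 rose from 17.0 ± 1.31 to 32.3 ± 0.412 CPM (mean ± SD of 3). MICA, another such ligand, rose by 0.44, and HLA-E, which engages the inhibitory receptor NKG2A, by 0.35, both named after their values were seen. MICB (0.13) lost the threshold in 6 of 16 alternatives. ULBP1 and HLA-G had no count in any sample.

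In the list of galectins, the relatives of LGALS9, 2 of 4 tested genes were raised and 1 lowered (median 0.094). Of all tested genes, 29.3% were raised and 29.4% lowered. The listed gene that did not pass was LGALS3BP (-0.039, edgeR adjusted p = 0.535), which binds galectins and is not one itself. Without LGALS3BP the median would be the 0.23 of LGALS8. LGALS3 rose from 96.7 ± 2.69 to 151 ± 1.46 CPM (mean ± SD of 3), 0.65 on the log2 scale (edgeR adjusted p = 1.40e-10), and LGALS8 by 0.23. LGALS1, the most abundant at a mean of 567 FPKM, had a log2 fold change of -0.14 (adjusted p = 0.0171) and lost the threshold in 7 of 16 alternatives.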
